A study of Mus musculus with 6 samples.

Results

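The nuclear genes of oxidative phosphorylation were followed in the foregut of mouse embryos without functional copies of Gli2 and Gli3, which relay Hedgehog signalling to target genes. Members were taken by symbol alone from the deposited expression table, as the genes named Nduf followed by a, b, c, s or v and a number (complex I), Sdha to Sdhd (complex II), Uqcr (complex III), Cox4 to Cox8 (complex IV, cytochrome c oxidase) and Atp5 (complex V, ATP synthase), without pseudogenes and the Ndufaf assembly factors. This rule found 82 of 22564 features, with 37 in complex I, 4 in complex II, 8 in complex III, 16 in complex IV and 17 in complex V. Symbols do not follow structure everywhere. Ndufa4 is a subunit of complex IV in spite of its name, Cox7a2l helps complexes III and IV to associate, and the products of Atp5s and Atp5sl are not structural subunits of ATP synthase. No library shows a mitochondrially encoded subunit under its symbol, so those genes were not analysed here, nor were Cox8b and Cox8c.

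Each of the 6 libraries came from the micro-dissected foregut of 1 embryo at embryonic day 9.5 and holds endoderm, mesoderm and whatever lay next to them. The Gli2-/-;Gli3-/- mutants (n = 3) are homozygous for both mutations, with 19, 22 and 21 somites for the embryos numbered 1, 2 and 3. The Gli2+/-;Gli3+/- controls (n = 3) are heterozygous for both, with 19, 24 and 21 somites, so the controls also carry mutant copies and no wild-type library was compared. All embryos were of mixed strain, and sex was not determined by the study. The study used these foreguts to ask what Hedgehog activity does in the mesoderm around the gut tube, and oxidative phosphorylation was not its subject. Expression is given in TPM, a length-corrected share of each library, and replicate error was the only measure of precision since TPM keeps no read depth.

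Oxidative phosphorylation is the last step of respiration. Complexes I and II pass electrons from NADH and succinate to ubiquinone, complex III passes them on to cytochrome c and complex IV to oxygen, and complexes I, III and IV pump protons across the inner mitochondrial membrane. ATP synthase uses the resulting gradient to make ATP, and the subunits of its catalytic head are encoded by Atp5a1 and Atp5b. Most subunits are nuclear-encoded, and many of the small ones surround the cores that complexes I, III and IV share with bacteria. The early embryo relies strongly on glycolysis, and mitochondria mature as the heart and circulation begin to work.

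Promoters are shown for 5 members whose levels differed most between libraries or which are copies of one another, to give the sequence context for the values that follow. RefSeq promoter windows (build GRCm38.p6) of 280 bases, 250 before the gene start and 30 after it, were matched by symbol for 65 of the 82 members. Capitals mark matches on either strand to GCGCNTGCG, 9 bases of the NRF1 motif, or to CCGGAAG, the core of ETS factors such as GABP, both known for their sites in respiratory genes, or to AAGATGGC, the motif of YY1. Motifs were allowed to overlap. The windows are chr10:80406792-80407071 on the minus strand for Uqcr11 (a small subunit of complex III), chr15:102671018-102671297, chr11:96075602-96075881 and chr2:73911297-73911576, all on the minus strand, for Atp5g2, Atp5g1 and Atp5g3 (3 genes for the same mature c subunit of the ATP synthase ring), and chr10:128083057-128083336 on the plus strand for Atp5b (the catalytic beta subunit).
Uqcr11: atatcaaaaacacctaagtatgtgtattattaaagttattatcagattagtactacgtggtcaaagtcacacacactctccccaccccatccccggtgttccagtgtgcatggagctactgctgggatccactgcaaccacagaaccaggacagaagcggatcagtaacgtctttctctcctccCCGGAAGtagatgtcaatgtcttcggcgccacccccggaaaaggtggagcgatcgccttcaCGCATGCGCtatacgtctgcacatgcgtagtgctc
Atp5g2: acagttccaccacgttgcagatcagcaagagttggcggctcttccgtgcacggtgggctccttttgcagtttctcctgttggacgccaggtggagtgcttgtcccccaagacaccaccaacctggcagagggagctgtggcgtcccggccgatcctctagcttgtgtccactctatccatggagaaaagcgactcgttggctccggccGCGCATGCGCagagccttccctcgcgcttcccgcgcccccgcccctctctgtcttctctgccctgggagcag
Atp5g1: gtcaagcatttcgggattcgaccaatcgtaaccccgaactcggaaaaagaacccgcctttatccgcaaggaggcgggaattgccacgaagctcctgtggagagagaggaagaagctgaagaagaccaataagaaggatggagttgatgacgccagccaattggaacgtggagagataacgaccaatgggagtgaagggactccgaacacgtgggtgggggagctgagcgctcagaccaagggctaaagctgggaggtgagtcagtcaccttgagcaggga
Atp5g3: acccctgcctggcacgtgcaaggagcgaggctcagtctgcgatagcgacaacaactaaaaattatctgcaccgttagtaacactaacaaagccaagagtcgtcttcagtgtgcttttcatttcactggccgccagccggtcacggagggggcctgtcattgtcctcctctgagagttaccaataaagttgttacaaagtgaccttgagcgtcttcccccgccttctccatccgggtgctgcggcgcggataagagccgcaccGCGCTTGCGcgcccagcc
Atp5b: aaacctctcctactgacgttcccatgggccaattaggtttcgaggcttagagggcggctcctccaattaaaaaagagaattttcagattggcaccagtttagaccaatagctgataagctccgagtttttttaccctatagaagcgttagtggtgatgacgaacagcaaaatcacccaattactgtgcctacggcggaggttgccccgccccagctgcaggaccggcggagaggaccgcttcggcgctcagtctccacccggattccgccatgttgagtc
Uqcr11 has an ETS match and, near its start, an NRF1 match. Atp5g2 and Atp5g3 have an NRF1 match each, with the one in Atp5g2 read on both strands, and Atp5g1 and Atp5b have none of the 3. Over all matched members the NRF1 letters were found in 22 of 65 windows (33.8%), against 6.79% of the 27025 genes with a window. This motif had first been searched with 1 more base and was shortened after those counts were known. The longer form was in 16 of 65 member windows (24.6%), against 4.98% of all genes. The ETS letters were found in 16 of 65 (24.6%), against 9.48% of all genes, and the YY1 letters in 3 of 65 (4.62%), against 2.66%. At least 1 of the 3 stood in 34 windows. A match is only a run of letters, and 31 members had none in this window.

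Several facts of the libraries bear on the members. Total TPM was the same in every library, but features listed only by an accession took 23.5% to 36.1% of it in mutants and 34.6% to 43.9% in controls. Between 18646 and 19282 features were above 0. Both libraries numbered 1 stood apart from the other 4 on the first principal component of all tested genes (-58.1 in the mutant and -50.5 in the control, against 19.7 to 39.9), and they are also the pair with 19 somites. Xist was at 568 TPM in mutant 2 and 523 TPM in control 2 and at no more than 0.75 TPM elsewhere. Gli2 was at 18, 37.0 and 27.5 TPM in mutants and 16.9, 20.9 and 25.6 TPM in controls, and Gli3 at 53.7, 97.3 and 73.8 TPM in mutants and 79.2, 129 and 109 TPM in controls. A value over a whole gene does not check a deletion of part of it. Foregut endoderm markers (4 genes) summed to 154 to 222 TPM in mutants and 141 to 185 TPM in controls, with none at 0. The 3 splanchnic mesoderm markers were also above 0 in every library but went different ways by genotype. Foxf1, a known Hedgehog target in gut mesoderm, was at 23.7, 4.25 and 21.6 TPM in mutants and 118, 72.7 and 73.1 TPM in controls. Pdgfra was at 54.1, 41.6 and 54.0 TPM in mutants and 79.2, 79.8 and 72.4 TPM in controls, and Vim at 276, 363 and 288 TPM in mutants and 179, 241 and 187 TPM in controls. All mutants were thus below all controls for Foxf1 and Pdgfra, as for 1.68% of all tested features, and above them for Vim, as for 6.68%. None of the 3 passed (limma adjusted p = 0.52, 0.94 and 0.999).

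The members were abundant. Of the 82, 37 averaged 100 TPM or more, 36 lay between 10 and 100 TPM and 9 below 10 TPM. Together they made up 1.58%, 0.914% and 0.985% of all TPM in mutants, against 1.36%, 0.845% and 0.975% in controls. The mutant numbered 1 and the control numbered 1 were the 2 highest, and the 4 other libraries lay close together whatever their genotype. Atp5b was the highest member, with 1599, 2966 and 2673 TPM in mutants and 1311, 2889 and 2715 TPM in controls. It ran against the sum, being lowest in both libraries numbered 1, and made up 10.2%, 32.4% and 27.1% of all member TPM in mutants and 9.61%, 34.2% and 27.8% in controls. Its partner in the catalytic head, Atp5a1, had 443, 266 and 356 TPM in mutants and 360, 207 and 307 TPM in controls, so that the ratio of Atp5b to Atp5a1 was 3.61, 11.1 and 7.50 in mutants and 3.64, 14.0 and 8.84 in controls. TPM corrects for length, which makes such a ratio between genes possible, but the annotation behind the table is not given in the sources used here.

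**Figure D1:**
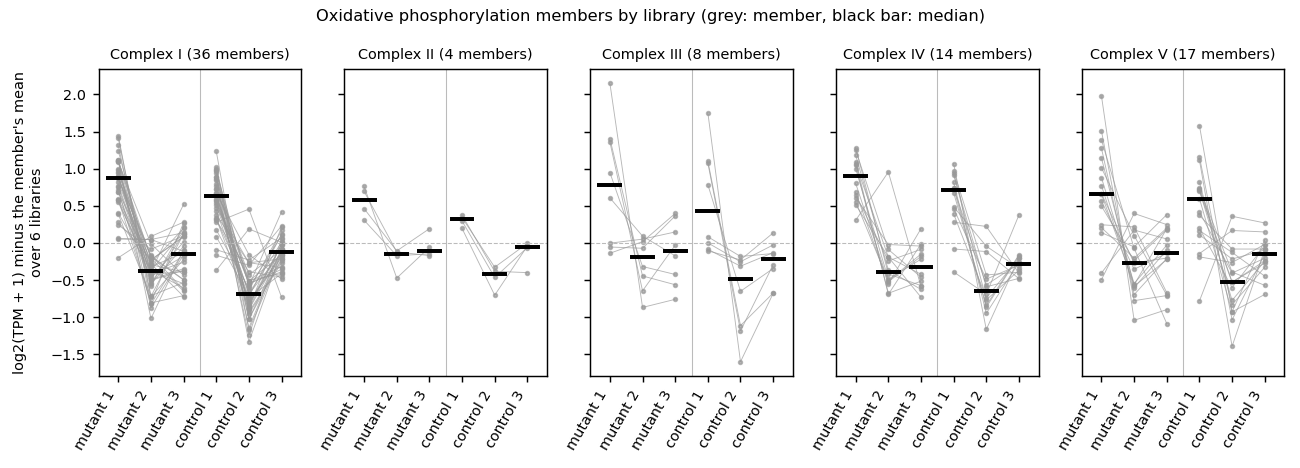
Level of each tested member in each library, as log2(TPM + 1) minus that member's mean over the 6 libraries (y axis), with mutants left of controls (x axis) and a panel for each complex. Grey points are members, lines join the libraries of a genotype and black bars are medians. In all 5 panels the bars of mutant 1 and control 1 lie above 0 and the other 4 below it.

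The first question was whether the loss of Gli2 and Gli3 changed these genes. No member was called in mutants against controls. Of 79 members that averaged 1 TPM or more, 0 reached both limits of the study's methods, an adjusted p no higher than 0.1 and a 2-fold difference, which is 1 on the log2 scale (limma on log2(TPM + 1), Benjamini-Hochberg over 14606 features, smallest adjusted p of a member 0.999). Over all features 6 were called, 4 lower and 2 higher, or 0.0411%, so a count of 0 among 79 is near that background. The study's own test, which works on counts, reported far more regulated transcripts from these foreguts, with Foxf1 among the lowered ones. The limma fit on TPM thus called fewer features than that test, and a count of 0 does not show that no member changed. The study names a stricter limit elsewhere as well, and at an adjusted p no higher than 0.05 there were 3 features (0.0205%) and 0 members. At an unadjusted p under 0.05 there were also 0 members, against 597 features (4.09%), and the smallest unadjusted limma p of a member was 0.175, for Atp5c1, the central stalk of ATP synthase. Mutants lay all above controls for 0 members, against 6.68% of all features, and all below for 0, against 1.68%.

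The log2 fold changes of members (mutant minus control, logFC below) ran between -0.54 for Ndufa12 and 0.47 for Cox6b2, with 66 above 0 and 13 below. Their median was 0.16, against 0.11 over all features tested, and by complex 0.16 in complex I, 0.21 in complex II, 0.23 in complex III, 0.20 in complex IV and 0.14 in complex V. The median over members was 0.03 with median-of-ratios scaling, which set the median of all features at -0.02, and -0.03 with somite number as a covariate. It was -0.22 without mutant 1, -0.13 without control 2 and 0.48 without control 1, so single libraries set its sign. Without regard to replicate number, the 95% interval of a member's logFC reached 1.01 to either side in the median (0.43 to 2.36), and lay wholly within 1 of 0 for 24 of 79 members. For Uqcr11 the interval ran from -2.01 to 2.71. These intervals count the differences between same-genotype libraries, those of number 1 included, as error. With the replicate number as a block they were narrower, at 0.36 to either side in the median (0.25 to 1.13), and 75 of 79 lay wholly within 1 of 0.

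**Figure D2:**
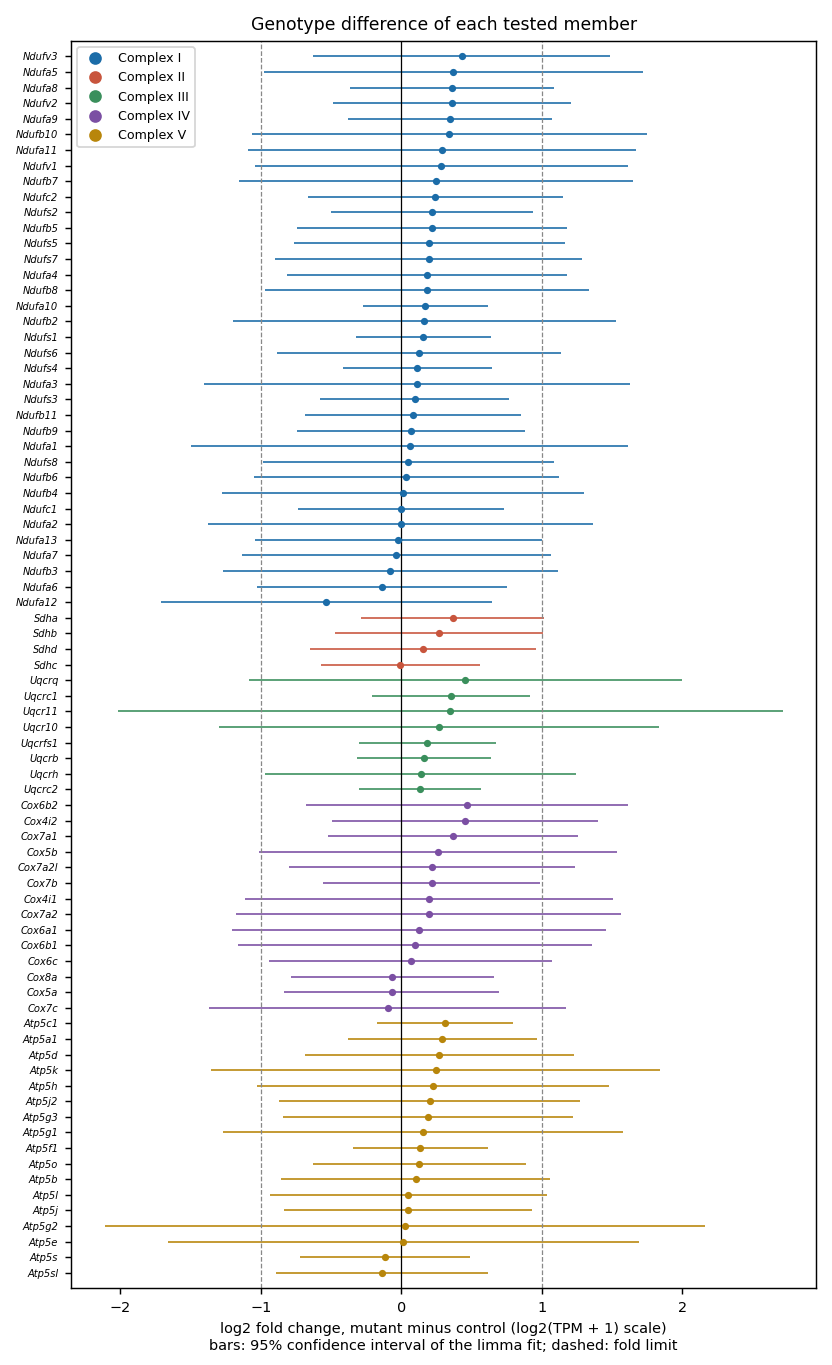
Log2 fold change (logFC) of each of the 79 tested members, mutant minus control, on the log2(TPM + 1) scale (x axis), with members listed down the page by complex and by size. Points are limma estimates, bars their 95% intervals and dashed lines mark 2-fold differences. In this fit, which has no replicate block, all 79 intervals cross 0. With the block 71 do.

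The libraries of the same number were then set side by side. Mutant 1 was higher than control 1 for 63 of 79 members (median log2 difference 0.24), mutant 2 higher than control 2 for 63 (median 0.26) and mutant 3 higher than control 3 for 39 (median -0.01). Of all 14606 features, 9064, 10623 and 7545 were higher in the mutant of numbers 1, 2 and 3 (medians 0.11, 0.23 and 0.02), so that the members' shift in number 2 was close to that of the whole library. With the replicate number as a block, 0 members were called, against 0.205% of all features, and 8 had an unadjusted limma p under 0.05, against 9.79% of all features. Of these, 7 had higher values in mutants (Uqcrq, Sdha, Atp5c1, Atp5a1, Ndufa8, Ndufa9 and Cox5b) and 1 had lower values (Ndufa12). The smallest limma adjusted p of a member was 0.38. Among all 14606 features 1159 were higher and 271 lower at the same limit. The members' count and its lean to higher values were thus near those of the whole table. In number 2 the mutant had 22 somites and the control 24, so this pair also differed in age. With somite number as a covariate in place of the block, 1 member was lower and 0 were higher at an unadjusted limma p under 0.05, against 908 of 14606 features. Ndufa12, an accessory subunit of complex I, had 360, 125 and 134 TPM in mutants and 429, 146 and 294 TPM in controls. Each mutant was below the control of its number, and the groups overlapped. Sdha, the flavoprotein of complex II that is also an enzyme of the tricarboxylic acid cycle, had 154, 103 and 127 TPM in mutants and 128, 68.0 and 108 TPM in controls. Each mutant was above its control, and again the groups overlapped.

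The next question was whether the members varied with the age of the embryo. In a limma fit with somite number and genotype as terms, 52 of 79 members fell with somite number at an adjusted p no higher than 0.1 and 0 rose, against 9.67% and 2.15% of all features. The members that fell were 28 of 36 in complex I, 2 of 4 in complex II, 4 of 8 in complex III, 8 of 14 in complex IV and 10 of 17 in complex V. The median slope was -0.29 log2 units per somite, against -0.02 over all features. The first principal component of the members held 87.9% of their variance, against 45.3% for all tested features, and ordered the libraries as 19 somites (-7.99 in the mutant and -6.06 in the control), 21 somites (2.43 and 1.77), 22 somites (3.74, mutant) and 24 somites (6.11, control). The first component of all tested features except the members put the libraries in the same order of somite number. Its scores were -57.6 (mutant) and -50.2 (control) at 19 somites and 20.9 (mutant) and 19.7 (control) at 21 somites. They were 27.8 at 22 somites and 39.4 at 24 somites, so the order was not particular to the members. The fit on somite number was chosen after the values had been seen. Somite number and library number cannot be told apart at 19 somites, where both libraries are numbered 1. The titles of this pair also begin with the same number, which those of the other numbers do not, and what it stands for is not given. Without mutant 1, without control 1 or without both, 0 members passed, with a median slope of -0.23, -0.28 and -0.14, and 0% of all features fell or rose in these 3 fits too. At an unadjusted limma p under 0.05, falling slopes were found for 53, 43 and 24 members, against 11.7%, 8.74% and 6.69% of all features. Without mutant 2, 0 members passed as well (median slope -0.25), against 0.00685% of all features, and at an unadjusted limma p under 0.05 there were 55, against 13.8%. Without each of the remaining 3 libraries 51 to 57 members fell, and 1212 to 1642 of all features.

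**Figure D3:**
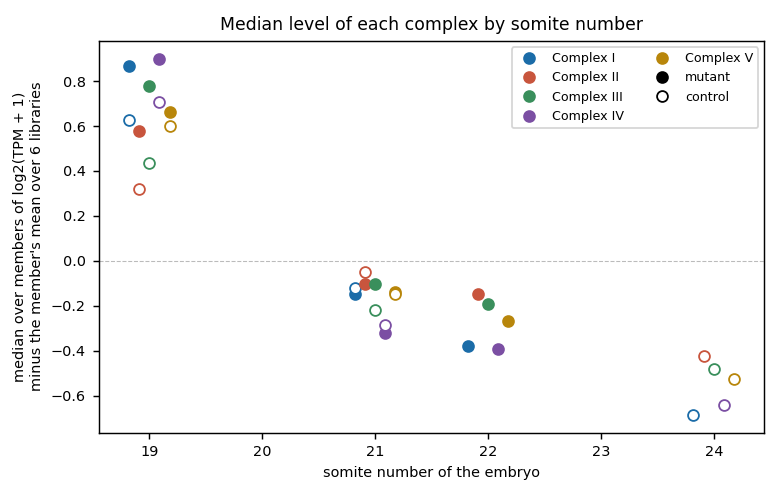
Median over the members of each complex of log2(TPM + 1) minus the member's mean over 6 libraries (y axis), against the somite number of the embryo (x axis), with filled points for mutants and open points for controls. The complexes are set slightly side by side for legibility. Every complex is above 0 in both 19-somite embryos and below 0 in the other 4.

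To give sizes, the 4 libraries of 21 to 24 somites (called later libraries here) were set against the 2 of 19 somites, with genotype as a covariate, a split that was also made after the values had been seen. In later libraries 42 of 79 members were called lower and 0 higher, against 7.41% and 2% of all features. The median logFC was -1.07, a level 2.10 times as high at 19 somites, against -0.02 over all features. Later libraries were all below both 19-somite libraries for 63 members (23.1% of all features) and all above them for 3 (20.4%). By complex, 23 of 36 members were called lower in complex I (median -1.13), 0 of 4 in complex II (median -0.64), 4 of 8 in complex III (median -0.85), 8 of 14 in complex IV (median -1.09) and 7 of 17 in complex V (median -0.94). Without mutant 1, 0 members were called (median -1.03), against 0.0685% of all features lower, and 46 were lower at an unadjusted limma p under 0.05, against 8.93% of all features. Without control 1 there was 1 member (median -1.15), against 0.151% lower. With a single 19-somite library calls were thus lost over the whole table, and the members' median kept its sign.

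In complex III, 4 small accessory subunits fell in later libraries and the core proteins did not pass. Uqcr11 was at 26.9 and 29.1 TPM in the later mutants, 15.8 and 30.8 TPM in the later controls and 225 and 170 TPM in the 19-somite mutant and control, with logFC -2.93 ± 0.25 (SE, adjusted p = 0.0038 by limma), the largest fall of any member. Uqcr10 was at 60.5 and 55.6 TPM in the later mutants, 35.8 and 67.3 TPM in the later controls and 220 and 175 TPM at 19 somites (logFC -1.86). Uqcrq (logFC -1.84) and Uqcrh, the hinge protein at the cytochrome c1 side (logFC -1.30), fell too. The core proteins Uqcrc1 and Uqcrc2, the Rieske iron-sulfur protein Uqcrfs1 and the subunit Uqcrb had logFC values of -0.39, 0.08, 0.10 and -0.02, none of which passed. Uqcrfs1 was at 65.9 and 86.1 TPM in the later mutants, 54.5 and 63.9 TPM in the later controls and 59.1 and 65.2 TPM at 19 somites, and the groups overlapped.

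In complex V the range was widest. Atp5g2 was at 30.3 and 33.6 TPM in the later mutants, 32.9 and 38.9 TPM in the later controls and 253 and 192 TPM at 19 somites, with logFC -2.67 ± 0.18 (SE, adjusted p = 0.0018 by limma). Atp5e, the epsilon subunit of the central stalk, had 30.5 and 32.1 TPM in the later mutants, 25.4 and 47.7 TPM in the later controls and 152 and 120 TPM at 19 somites (logFC -2.0). Atp5k, the e subunit by which ATP synthases pair up, had a logFC of -1.79. Atp5c1 did not pass, with a logFC of 0.04. Atp5b went the other way and was all above in later libraries, with a logFC of 0.96 (limma adjusted p = 0.020), just under the fold limit of 1, and Atp5a1, with -0.52, did not pass. As Atp5b makes up so much of complex V, the complex summed to 4895 and 5046 TPM in the later mutants, 4532 and 4887 TPM in the later controls and 5828 and 4898 TPM at 19 somites, so that the 19-somite mean was 1.11 times the later mean, against 1.52 to 2.37 times for the sums of complexes I to IV.

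Complex I had the most members called. Ndufa1 (X-linked, a small subunit of the membrane arm needed for assembly) was at 34.1 and 56.6 TPM in the later mutants, 27.5 and 56.9 TPM in the later controls and 139 and 150 TPM at 19 somites (logFC -1.76). Ndufv1, which holds the NADH binding site, was a large subunit that fell as well (logFC -1.41). Ndufs1, the largest subunit, did not pass, with 40.6 and 43.3 TPM in the later mutants, 31.7 and 46.2 TPM in the later controls and 40.8 and 34.9 TPM at 19 somites. Ndufs4, an accessory subunit whose loss in mice gives a model of Leigh syndrome, had 106 and 122 TPM in the later mutants, 114 and 101 TPM in the later controls and 87 and 77.2 TPM at 19 somites, all above and with a logFC of 0.43 (limma adjusted p = 0.077), but under the fold limit. The X-linked members Ndufb11 and Cox7b were at 35.5 and 135 TPM in mutant 2 and at 41.1 and 114 TPM in control 2, the libraries with Xist, within or next to the range of the number 3 libraries of both genotypes (39.13 to 49.99 TPM for Ndufb11 and 130 to 151 TPM for Cox7b). Ndufa1, also X-linked, was lower there, at 34.1 TPM in mutant 2 and 27.5 TPM in control 2, against 56.6 TPM in mutant 3 and 56.9 TPM in control 3. In complex II no member passed the fold limit. By limma's adjusted p alone 3 of 4 were lower in later libraries (Sdhb 0.015, Sdhd 0.039 and Sdhc 0.060), against 2202 of all 14606 features. All 4 had later libraries all below, against 23.1% of all features. Sdha was at 103 and 127 TPM in the later mutants, 68.0 and 108 TPM in the later controls and 154 and 128 TPM at 19 somites. Its logFC of -0.49 passed neither limit (limma adjusted p = 0.14), and Sdhc had the same logFC.

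In complex IV, Cox7c, the highest member after Atp5b, was at 312 and 349 TPM in the later mutants, 370 and 380 TPM in the later controls and 1030 and 979 TPM at 19 somites (logFC -1.51, limma adjusted p = 0.0053). Of the isoform pairs, the widely used copy was high and fell in later libraries for Cox4i1 (-1.52), Cox6a1 (-1.59), Cox6b1 (-1.49), Cox7a2 (-1.55) and Ndufa4 (-1.14). Cox7b, the widely used partner of Cox7b2, was under the fold limit (logFC -0.83, limma adjusted p = 0.014). The restricted copies were low. Cox4i2, known from lung and hypoxia, was at 4.45, 7.55 and 1.94 TPM in mutants and 3.17, 3.07 and 2.16 TPM in controls, which is 1.54%, 8.02% and 2.44% of both Cox4 copies in mutants and 1.60%, 4.63% and 2.06% in controls. It was highest in mutant 2, with no order by genotype. Cox6a2 and Cox7a1 are the copies of heart and skeletal muscle. Cox6a2 was at 1.65 TPM in mutant 1 and 0.84 TPM in control 1 and listed at 0 in the other 4 libraries. Cox7a1 was at 3.31, 1.78 and 1.74 TPM in mutants and 2.70, 0.69 and 1.45 TPM in controls, highest in both libraries numbered 1. Cox6b2 and Cox7b2, known from testis, reached 10.8 TPM and 1.45 TPM at most, and Ndufa4l2, known from hypoxia, 1.81 TPM. Cox6a2, Cox7b2 and Ndufa4l2 had a mean under 1 TPM and were not tested. Cox8a, with 213 and 181 TPM in the later mutants, 283 and 183 TPM in the later controls and 347 and 295 TPM at 19 somites, had a logFC of -0.60, below the fold limit.

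The 3 c-subunit genes took different shares in different libraries. Atp5g3 was the main copy in every library, with 514, 220 and 373 TPM in mutants and 494, 171 and 335 TPM in controls. Atp5g1 had 326, 118 and 58.0 TPM in mutants and 207, 94.5 and 83.3 TPM in controls. Atp5g2 made up 23.1% of the 3 in mutant 1 and 21.5% in control 1, against 7.25% to 11.03% in the other 4 libraries. The share of Atp5g3 was 47.0%, 59.7% and 80.3% in mutants and 55.3%, 57.3% and 73.3% in controls. As these genes encode the same mature protein, their sum gives the supply of c subunit transcripts, which was 369 and 464 TPM in the later mutants, 299 and 457 TPM in the later controls and 1092 and 893 TPM at 19 somites.

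**Figure D4:**
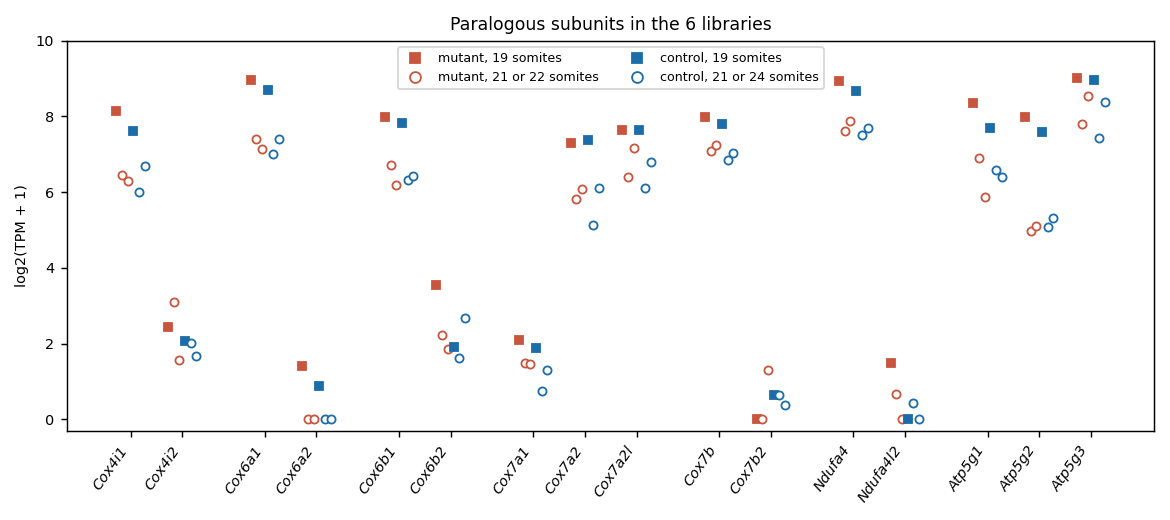
Level of paralogous subunits as log2(TPM + 1) (y axis) in the 6 libraries, with the mutants left of the controls within each gene (x axis), filled squares for 19 somites and open circles for later embryos. The widely used copies lie above their restricted copies in every library, and the filled squares of Atp5g2 stand well above its open circles.

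Other values moved with the 19-somite libraries, and their part in the members' levels was not tested. Cardiomyocyte markers (12 genes) summed to 1258 and 332 TPM in the later mutants and 456 and 306 TPM in the later controls. At 19 somites they summed to 1857 and 870 TPM. Of the 11 tested, 8 were called lower in later libraries (median logFC -1.96), against 7.41% of all features. Of the defining markers, Myh6 had 46.9 and 12.6 TPM in the later mutants and 8.85 and 7.5 TPM in the later controls. At 19 somites it had 123 and 85.3 TPM, and Nppa was listed at 0 in both libraries numbered 3. Later libraries were all below both 19-somite libraries for 5 of the 11 tested, against 23.1% of all features. Mutant 2 was above both 19-somite libraries for Myh7 (35.2 TPM, against 15.05 and 4.56 TPM) and Actc1 (681 TPM, against 652 and 357 TPM). By genotype 10 of the 11 were higher in mutants (median logFC 0.83), with 0 called. In mutant 2, the marker sum was above that of control 1, and its member sum was 9144 TPM, against 13644 TPM in control 1. These are single embryos, and a link between the marker and member sums was not tested. In bulk tissue, fewer cells of a type and less RNA per cell cannot be told apart. Primitive red cell markers summed to 32477 and 7582 TPM in the later mutants, 6655 and 28497 TPM in the later controls and 8911 and 3551 TPM at 19 somites, with no such split. Endothelium markers summed to 150, 226 and 146 TPM in mutants and 73.2, 124 and 96.6 TPM in controls. All 6 were higher in mutants with 0 called, and mutants lay all above controls for 4, against 6.68% of all features. Neural tube markers summed to 49.3 TPM in mutant 2 and to 1.06 to 6.35 TPM elsewhere. Hepatoblast markers summed to 26.2, 10.3 and 187 TPM in mutants and 80.6, 125 and 10.1 TPM in controls. The ribosomal RNA precursor Rn45s was at 7896 and 5234 TPM in the later mutants, 6042 and 6979 TPM in the later controls and 24049 and 12450 TPM at 19 somites. With libraries rescaled to exclude accession-named features, the median of the members was -0.89 in later libraries, against 0.14 over all features, with 32 called lower and 1 higher, against 5.35% and 4.46% of all features.

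Length went with the size of the change. Most members are short, with a median coding length of 423 bases (156 to 2181, GENCODE annotation M21) against 1404 over all features. Among 77 members with a coding length, the later minus 19-somite logFC correlated with log2 coding length at r = 0.58, and over 11950 features at r = 0.40. Genes are not independent replicates and share these 6 libraries. Up to 400 bases the median of 35 members was -1.30 against -0.73 for all features of that length, from 401 to 800 bases that of 28 members was -0.91 against -0.32, and above 800 bases that of 14 members was -0.44 against 0.05. In each of these ranges the members' median was thus the lower one. Lengths were not matched within a range. The last range has no upper limit, and coding lengths over all features reached 105639 bases, against 2181 for members. With a trend in coding length removed from each library, 17 members were called lower in later libraries and the median was -0.56, where 5.3% of all features were called lower and their median was -0.06. Without that step the figures were 42 and -1.07, over all 79 tested members.

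**Figure D5:**
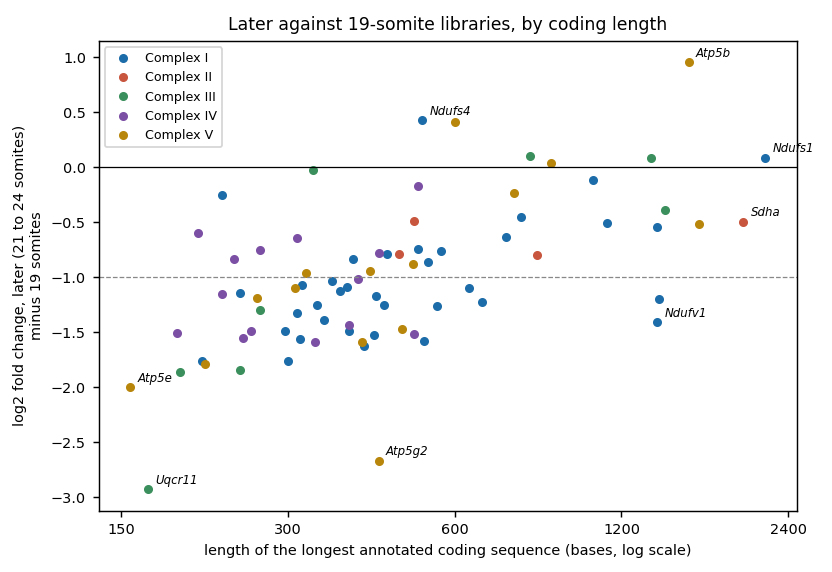
Log2 fold change (logFC) of each member with a coding length, later minus 19-somite libraries (y axis), against the length of its longest annotated coding sequence in bases on a log scale (x axis), coloured by complex, with a dashed line at a fall of 1. Short members lie lowest, with Uqcr11 at -2.93, and Atp5b lies highest at 0.96.

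Related genes placed the members among their pathway. By genotype, 0 genes were called in each of the lists that follow, against 0.0411% of all features. At an unadjusted limma p under 0.05 there were 1 of 14 glycolytic enzymes and 2 of 77 mitochondrial ribosomal proteins, against 4.09% of all features. In later libraries 7.41% of all features were called lower and 2% higher. By limma's adjusted p alone, 2202 of 14606 features were lower and 1703 higher. Subunits and carriers that the naming rule misses had 3 of 8 called lower in later libraries (median logFC -0.85), among them Usmg5, a small subunit of ATP synthase, at 34.5 and 54.6 TPM in the later mutants, 38.7 and 50.2 TPM in the later controls and 200 and 237 TPM at 19 somites. Of complex I assembly factors 0 of 14 were called (median -0.34, with 2 lower at an adjusted limma p no higher than 0.1 alone), and of other assembly factors 6 of 29 were called lower (median -0.29), including Cox17, a copper chaperone for complex IV (-2.10), and Uqcc2, an assembly factor of complex III (-2.21). Enzymes of the tricarboxylic acid cycle and pyruvate dehydrogenase had a median of -0.05, with 0 of 16 called and 2 lower and 3 higher by limma's adjusted p alone. Glycolytic enzymes had a median of -0.49, with 0 of 14 called and 6 lower by adjusted p alone. The 76 cytoplasmic ribosomal proteins had a median of -1.11 with 42 called lower, close to the values of the members, and the 77 mitochondrial ribosomal proteins one of -0.64 with 16 called lower. Whether these lists differ from the members was not tested.

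Of 12 tested regulators of mitochondrial biogenesis, 0 were called in later libraries (median logFC 0.15). By limma's adjusted p alone 1 was lower and 2 were higher, against 2202 and 1703 of 14606 features. Gabpa, the DNA-binding part of the ETS factor GABP, was at 113 and 109 TPM in the later mutants, 112 and 107 TPM in the later controls and 71.2 and 72.5 TPM at 19 somites, a logFC of 0.61 (limma adjusted p = 0.024) that was under the fold limit. Its partner Gabpb1 had a logFC of 0.57 (adjusted p = 0.032). Esrra, a nuclear receptor that acts on respiratory genes, was low, with 2.83 and 2.93 TPM in the later mutants, 1.17 and 2.19 TPM in the later controls and 4.15 and 6.21 TPM at 19 somites (logFC -0.93). Nrf1 was at 38.2, 30.4 and 30.6 TPM in mutants and 34.1, 20.7 and 37.0 TPM in controls, and the groups overlapped. Among members with a promoter window, the ETS letters were found in 11 of 38 called lower in later libraries and in 5 of 26 tested but not called, and the NRF1 letters in 14 of 38 and 8 of 26 (9 of 38 and 7 of 26 with the longer form of the motif), differences that were not tested.

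In glycolysis, the mutants had a median logFC of 0.40 against controls, above that of the members. By library number, 13, 13 and 5 of the 14 were higher in the mutant of numbers 1, 2 and 3. The median log2 differences were 0.52, 0.74 and -0.18. Only Pfkp, the platelet form of phosphofructokinase, had an unadjusted limma p under 0.05 among the 14, with 9.31, 8.52 and 6.27 TPM in mutants and 3.85, 2.02 and 2.64 TPM in controls. All mutants were above all controls, as for 6.68% of all tested features, but the logFC of 1.25 did not pass (limma adjusted p = 0.57).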

How the data were processed

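RNA of 6 foreguts was made into libraries with low-input amplification of polyadenylated transcripts, which does not mark strand. Per the submitters' notes and the study's methods, the CSBB pipeline mapped reads to mm10. Which aligner, quantifier and gene models it ran is not given in the sources used here. TPM values, which keep no read depth, are what the authors deposited, in 1 table. The study's test, RUVSeq, needs counts, so limma version 3.58.1 (R version 4.3.3, mean-variance trend, two-sided) was run on log2(TPM + 1) for the 14606 features with a mean of at least 1 TPM, with the limits of the study's methods (adjusted p no higher than 0.1 and a log2 difference of 1 or more in either direction). This scale understates the changes of low genes, and p-values measure the spread between single embryos. The step was tested on simulated data with independent noise, a capped spread and planted changes larger than the fold limit. That test does not show whether changes near the fold limit could be found in these members.

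Members, gene lists and tests were chosen with earlier results of these data known. Members named were the 2 highest of each complex, isoform groups, X-linked members, those called by genotype and up to 6 per direction with an unadjusted p under 0.05 by genotype. Of other lists, up to 3 genes with the smallest p were eligible. Members described for somite number, for the replicate block and for promoters, Nrf1, Myh6 and Nppa were added after their values were seen, as were the somite fits, the motifs and the coding length trend. The NRF1 motif was shortened by 1 base, for printing, after the counts of the longer form were known. Complexes were assigned by symbol. Lengths and positions came from GENCODE M21 (GRCm38, the build of mm10), with 80 of 82 members matched.

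Same-numbered libraries of both genotypes deviated together from their group means (correlations 0.67, 0.37 and 0.15, each over 0.1). Library numbers were therefore used as a block in an alternative fit, while the main fit had genotype as its only term. No label gives the meaning of these numbers, although the titles of both libraries numbered 1 begin alike. Both libraries numbered 3 correlated best with number 2 of the other genotype. The study describes the controls as littermates, and elsewhere states that control and mutant embryos came from separate litters. It does not say which libraries, if any, share a litter. Alternatives were pseudocounts, filters, scalings, covariates, length trends, call limits and leaving out libraries.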

Additional observations from a re-analysis of the deposited data

How the results depend on the processing

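Mutant against control, no alternative called a member. Features called in all were 6, and 2 with no filter, 1 with a mean of at least 5 TPM, 11 with quantile normalization, 16 without accession-named features, 13 with the length trend removed, 12 with the coding length trend removed, 27 with somite number as a covariate, 3 at an adjusted p of at most 0.05, 0 without both libraries numbered 1 and 0 to 5 leaving out 1 library. The replicate block gave 30, with the length trend removed 44 and with the coding length trend removed 55. Members with an unadjusted p under 0.05 were 0, and 8 in each of these 3 fits with the replicate block, 1 with somite number as a covariate and 0 to 1 leaving out 1 library. Medians moved by less than the spread between libraries. They ran between -0.22 and 0.48 for all members leaving out 1 library, -0.24 and 0.47 for complex I, -0.09 and 0.43 for complex II, 0.01 and 0.48 for complex III, -0.29 and 0.55 for complex IV and -0.19 and 0.42 for complex V. The replicate block changed no call of a member.

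In later against 19-somite libraries, features called were 1375, and 627 with a pseudocount of 5, 807 with no filter, 847 with the length trend removed, 845 with the coding length trend removed, 3905 with no fold limit and 11 to 1591 leaving out 1 library. Members called were 42, and 26 with the length trend removed, 17 with the coding length trend removed and 0 to 45 leaving out 1 library. The median over members was -0.65 with the length trend removed and -0.56 with the coding length trend removed, with -0.72 and -0.67 for complex I, -0.61 and -0.53 for complex III and -0.78 and -0.48 for complex IV. Complex II had -0.42 with the length trend removed and -0.46 without accession-named features. Complex IV had -1.43 with a mean of at least 5 TPM, -0.90 without accession-named features and -1.25 to -0.98 leaving out 1 library. Complex V had -0.76 with quantile normalization, -0.75 without accession-named features and -0.52 with the coding length trend removed.

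For the slope per somite, 0 to 58 members passed leaving out 1 library (medians -0.40 to -0.23) and 0 without both libraries numbered 1 (median -0.14). The median was -0.18 with the coding length trend removed and -0.24 without accession-named features. With 1 more base in the NRF1 motif, 16 of 65 member promoters (24.6%) held it, against 4.98% of all. Read depth is unknown, so what depth limits cannot be given.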
